A study of Mus musculus with 6 samples.

Results

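The genes described here are 42 lysosomal and autophagy genes, chosen by symbol out of 21876 distinct symbols in an RNA sequencing table of Neuro-2a cells. Neuro-2a is a neuroblastoma line from the mouse whose cells can grow neurites. All 42 were found in the table, having been chosen, like the further lists below, with earlier results of these data known. They comprise 6 membrane proteins, 9 cathepsins and other proteases, 12 hydrolases of sugars, lipids and sulfates, 2 cofactor proteins, 2 transcription factors, 5 proteins of the LC3 and GABARAP family and 6 factors of autophagy initiation and conjugation. The 6 libraries fall into 3 groups of 2, namely cells overexpressing the long noncoding RNA lncPim1, cells with lncPim1 knocked down by RNA interference, and control cells labelled wild type. No empty vector or scrambled RNA is labelled as control, and all groups share the 1 cell line. Whether both libraries of a group stem from different cultures is not stated, so the p-values rest on a spread that may be technical only. The series title concerns neurite regeneration after injury by ACR, and no such treatment is mentioned for these libraries.

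The lysosome is the acidic organelle in which a cell breaks down proteins, glycans and lipids, with hydrolases that are made in the endoplasmic reticulum and carried there by sorting receptors. Autophagy delivers cytoplasm and organelles to it: a membrane grows around the cargo, is marked by lipid-linked LC3 and GABARAP proteins, and fuses with the lysosome. TFEB and TFE3 are transcription factors that bind the sequence CACGTG in promoters of many lysosomal genes. Neurons depend on the pathway for clearing axons and cell bodies, and inherited loss of many of these hydrolases causes storage disease of the nervous system.

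Values are FPKM, sequenced fragments divided by the length of the transcript and by the mapped total, as the authors deposited them. Summed FPKM was 294510 and 303139 in overexpression libraries and 277508 and 272528 in knockdown libraries, against 298032 and 305463 in control libraries. Absolute depth is unknown, and the precision of low values cannot be given as a counting interval. The table had no row for lncPim1, so the targeted RNA could not be checked against the labels. Among 15 markers of the sympathetic neuroblast and neuronal identity of Neuro-2a cells, Phox2a was at 184 and 211 FPKM under overexpression and 147 and 151 FPKM under knockdown, against 237 and 210.2 FPKM in the control. Of the 13 of these markers that were tested, limma called 8 lower and 1 higher under knockdown (61.5% and 7.69%), and 7 lower and 1 higher under each of the 3 other scalings described below. The 1 called higher was Th, the enzyme that starts catecholamine synthesis, at 5.67 and 7.24 FPKM under overexpression and 11.9 and 9.32 FPKM under knockdown, against 4.99 and 4.67 FPKM in the control (log2 fold change of knockdown 0.99 ± 0.12, limma adjusted p = 4.97e-04). Under overexpression 2 of the 13 were called lower (15.4%, beside 0.849% of all tested genes) and none higher. They were Isl1 (log2 fold change -0.56 ± 0.09, limma adjusted p = 0.0218) and Tubb3 (-0.27 ± 0.05, limma adjusted p = 0.047). After quantile normalization 1 was called lower. Identity markers thus moved with the knockdown and some with overexpression, and their part in the results was not tested. Markers of another tissue were also present: 16 markers of the digestive tract summed to 52.6 and 67.2 FPKM in overexpression libraries and to 20.9 and 21.2 FPKM in knockdown libraries, against 59.5 and 54.9 FPKM in control libraries. Of these 16, 11 or 12 were at 0 in a knockdown library and at most 1 in any other library. Most of the knockdown sums was Cela1, an elastase gene, at 20.3 and 20.6 FPKM. The other 15 summed to 28.9 and 43.5 FPKM in overexpression libraries and to 0.623 and 0.584 FPKM in knockdown libraries, against 36.4 and 29.0 FPKM in control libraries. Their part in the results was not tested. The knockdown libraries stood apart from the rest: limma called 4948 of 10721 tested genes, or 46.2%, between knockdown and control, with 14.8% higher and 31.3% lower. Overexpression against control gave 165 calls, or 1.54%, with 0.690% higher and 0.849% lower. These tests were made on log2(FPKM + 1) for genes averaging at least 1 FPKM over the 6 libraries, and a gene was called at a Benjamini-Hochberg adjusted p under 0.05 over all tested genes.

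In control cells the most abundant of these transcripts per length was Lamp1, which encodes a heavily glycosylated protein lining the lysosomal membrane, at 255 ± 10.7 FPKM (SD, n = 2). It stood at rank 153 of all symbols. Psap, the precursor of the saposin activators of sphingolipid breakdown, followed at 235 ± 8.63 FPKM, and Ctsd, the aspartic protease cathepsin D, at 232 ± 14.2 FPKM (SD, n = 2 each). The libraries of Psap and Ctsd overlapped in control cells, and those of Lamp1 lay above both. Cd63, a tetraspanin of late endosomes, and Ctsb, cathepsin B, came next at 124 ± 7.94 and 116 ± 3.43 FPKM (SD, n = 2 each), without overlap between them. At the low end, Ctsc and Ctsh, cysteine proteases best known from immune and epithelial cells, averaged 0.00745 and 0.0517 FPKM over all 6 libraries. These and Ctsf, a further cysteine cathepsin at 0.891 FPKM, were under the limit for testing, so 39 of the 42 genes were tested. Cd68, with a mean of 1.58 FPKM, and Lipa, with 1.76 FPKM, lay just above that limit. Cd68 passed it through the knockdown libraries alone, so its presence among the tested genes is tied to its difference.

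**Figure D1:**
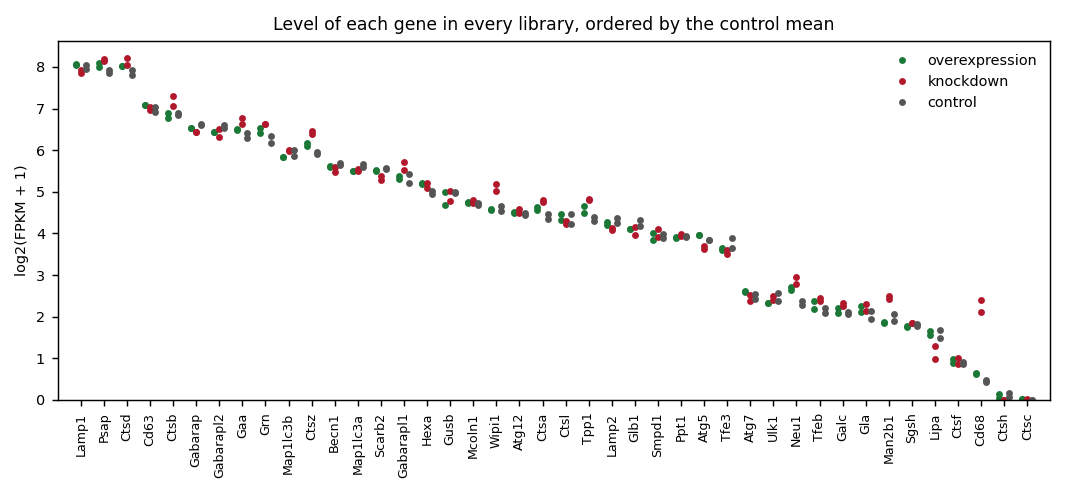
Level of each of the 42 genes as log2(FPKM + 1) in every library (points, 2 each for overexpression, knockdown and control), with genes ordered along the horizontal axis by their control mean. Lamp1, Psap and Ctsd stand highest, Ctsc, Ctsh and Cd68 lowest, and the knockdown libraries of Cd68 lie far above its other points.

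Under knockdown of lncPim1, 8 of the 18 tested enzymes were called higher than in the control, 1, the acid lipase, was called lower and 9 were not called. Both cofactors, Cd68, Tfeb, Gabarapl1 and Wipi1 were also higher, and 2 membrane proteins, Gabarap and Atg5 lower. Cd68 entered the test through its knockdown libraries alone. Of the 39 tested genes 14 were called higher and 5 lower by limma, and 20 were not called. An unadjusted limma p under 0.05 was found for 25 of the 39, beside 5799 of all 10721 tested genes. The share called, 48.7%, is close to the 46.2% of all tested genes, whereas the split ran the other way, since 14.8% of all tested genes were called higher and 31.3% lower. The median log2 fold change was 0.062 over these 39 genes and -0.070 over all tested genes. In bulk libraries fewer cells of a type and less RNA per cell cannot be told apart. The balance between directions depended on the scaling: scaling by median log ratio gave 17 higher and 2 lower, quantile normalization 19 and 1, and scaling to the same summed FPKM 21 and 1. All 14 genes called higher were also called higher under each of these, and of the genes called lower Lipa alone was called under each. The same scalings set the all-gene background at 21.2% higher and 21.8% lower, 18.7% and 21.4%, and 25.4% and 16.2%. The last of them moved the median of all genes by 0.117 on the log2 scale, to 0.048.

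Overexpression of lncPim1 changed none of the 39 genes at an adjusted p under 0.05 by limma, beside 1.54% of all tested genes. At an unadjusted p under 0.05 there were 10 of the 39, against 1833 of all 10721 tested genes. The median log2 fold change was 0.031, against -0.003 over all genes. After quantile normalization Ctsz (adjusted p = 0.035) and Psap (adjusted p = 0.049) were called higher, beside 0.616% of all tested genes, and after scaling to the same summed FPKM Ctsz was (adjusted p = 0.0389), beside 1.02%. Both comparisons share the control libraries, and their values are given side by side below.

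**Figure D2:**
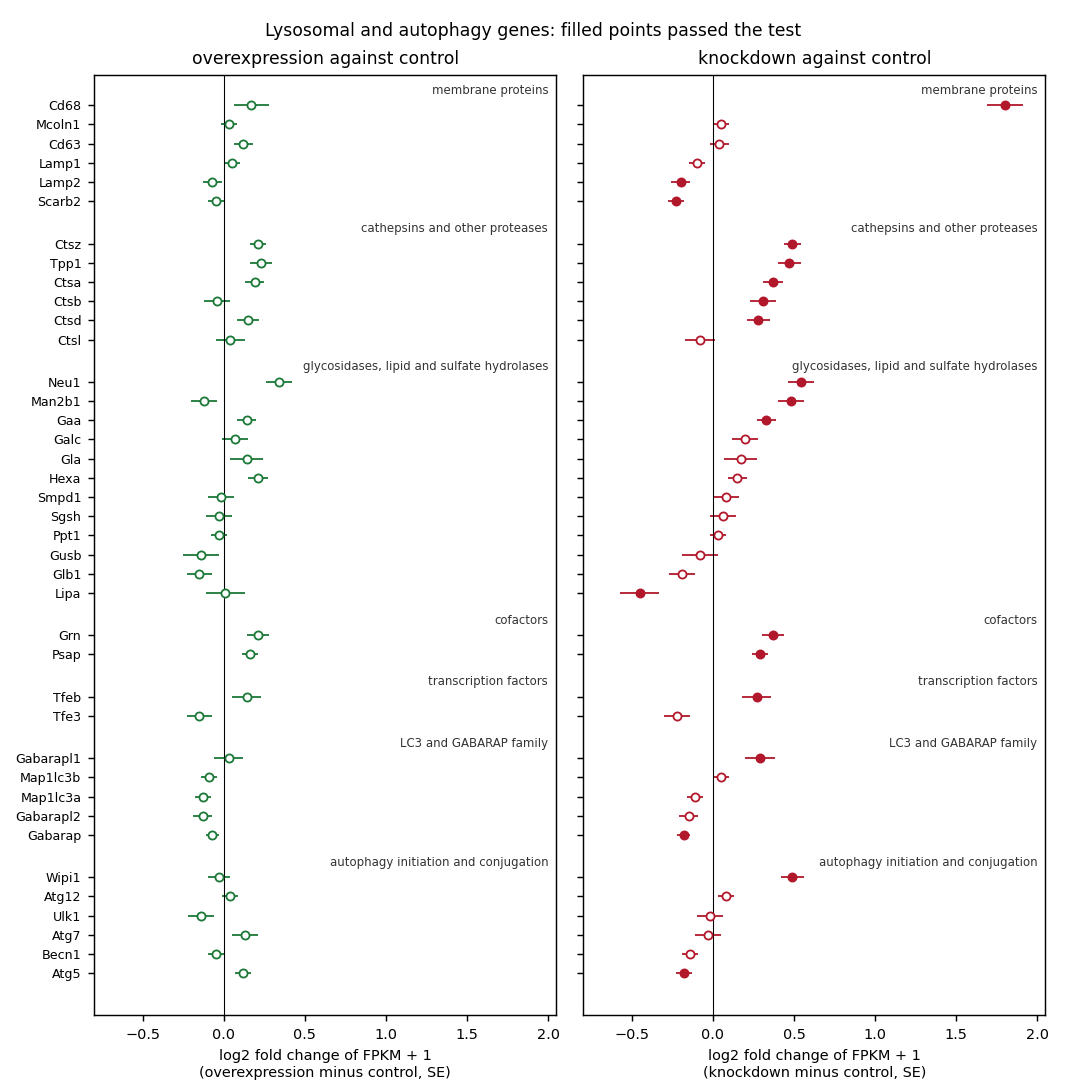
Log2 fold changes with standard errors from the limma fit on log2(FPKM + 1), for each of the 39 tested genes grouped by role, overexpression against control and knockdown against control. Filled points passed an adjusted p under 0.05; 19 did under knockdown and none under overexpression.

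Among the proteases, 5 of the 6 tested were higher under knockdown and none was lower, with a median log2 fold change of 0.339. Of all tested genes 14.8% were higher and 31.3% lower. Under overexpression none of the 6 was called and their median was 0.172. There 4 of the 6 had an unadjusted limma p under 0.05, beside 1833 of all 10721 tested genes. Ctsz, the carboxypeptidase cathepsin Z, was at 67.5 and 71.2 FPKM in overexpression libraries and at 86.5 and 82.4 FPKM in knockdown libraries, against 59.0 and 60.9 FPKM in control libraries. The 3 groups did not overlap, with knockdown highest and control lowest. Knockdown was higher than control by 0.49 ± 0.05 on the log2 scale (SE, limma adjusted p = 2.41e-04), and overexpression by 0.21 ± 0.05 (adjusted p = 0.0947), which did not pass. Tpp1 encodes a tripeptidyl peptidase lost in a childhood neuronal ceroid lipofuscinosis. It had 24.2 and 21.5 FPKM under overexpression and 27.4 and 27.0 FPKM under knockdown, against 18.6 and 20.0 FPKM in the control, the same order without overlap. The differences from control were 0.23 ± 0.07 (adjusted p = 0.135) under overexpression and 0.47 ± 0.07 (limma adjusted p = 8.12e-04) under knockdown. Ctsa, a carboxypeptidase that also holds neuraminidase and beta-galactosidase in a stable complex, read 23.7 and 22.7 FPKM under overexpression and 26.7 and 26.0 FPKM under knockdown, against 19.5 and 21.0 FPKM in the control. Again all knockdown values lay above all overexpression values and these above control. Its log2 differences were 0.19 ± 0.06 (adjusted p = 0.138) and 0.37 ± 0.06 (limma adjusted p = 0.00119).

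The calls of the abundant cathepsins did not hold with every library left out. Ctsd had 257 and 258 FPKM under overexpression and 297 and 265 FPKM under knockdown, against 222 and 242 FPKM in the control. The groups did not overlap, but one knockdown library lay far above the other. Knockdown exceeded control by 0.28 ± 0.07 on the log2 scale (SE, limma adjusted p = 0.00911), a call lost without control 1 (0.21, adjusted p = 0.0729) or without knockdown 1 (0.20, adjusted p = 0.0656). Ctsb had 108 and 118 FPKM under overexpression and 156 and 133 FPKM under knockdown, against 114 and 118 FPKM in the control. Here the overexpression and control libraries overlapped and both knockdown libraries were higher. The difference of knockdown from control was 0.31 ± 0.08 (limma adjusted p = 0.0107), and it did not pass without control 1 (0.28, adjusted p = 0.0672) or without knockdown 1 (0.20, adjusted p = 0.0595). Ctsl, cathepsin L, was the tested protease without a call, at 18.9 and 21.1 FPKM under overexpression and 18.8 and 17.8 FPKM under knockdown, against 17.7 and 21.2 FPKM in the control. Its groups overlapped, and the knockdown difference was -0.08 ± 0.09 (limma adjusted p = 0.461). Another gene overlaps Ctsd on the same strand in the annotation. The same holds for Ctsl, Glb1, Map1lc3b, Gabarapl1, Atg5 and Atg7, over 8400 bases in Map1lc3b. The sources used here do not give how the authors' counting treated reads in such overlaps.

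The cofactors moved like the proteases, with both called higher under knockdown, beside 14.8% of all tested genes. Grn encodes progranulin, which is secreted, taken up and cut into granulins in the lysosome, and whose loss causes frontotemporal dementia or storage disease. It was at 91.4 and 83.7 FPKM under overexpression and 97.9 and 98.1 FPKM under knockdown, against 71.6 and 80.0 FPKM in the control. Psap was at 256 and 271 FPKM under overexpression and 291 and 284 FPKM under knockdown, against 229 and 241 FPKM in the control. For both genes the groups did not overlap, with knockdown highest and control lowest. Under knockdown the log2 difference was 0.37 ± 0.07 for Grn (limma adjusted p = 0.00236) and 0.29 ± 0.05 for Psap (adjusted p = 0.00241). Under overexpression it was 0.21 ± 0.07 (adjusted p = 0.16) for Grn and 0.16 ± 0.05 (adjusted p = 0.158) for Psap, and neither passed.

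Of the 12 hydrolases of sugars, lipids and sulfates, 3 were higher under knockdown, 1 was lower and 8 were not called. The share called was 33.3%, beside 46.2% of all tested genes (14.8% higher and 31.3% lower). Neu1, the sialidase that trims sialic acid from glycoproteins and needs Ctsa for its activity, had 5.21 and 5.52 FPKM under overexpression and 6.72 and 5.84 FPKM under knockdown, against 3.83 and 4.20 FPKM in the control. All 3 groups were separate. The log2 difference was 0.54 ± 0.08 under knockdown (SE, limma adjusted p = 0.00116) and 0.34 ± 0.08 under overexpression (adjusted p = 0.0823), the largest among these genes for overexpression and not past the threshold. Man2b1, the alpha-mannosidase of glycoprotein breakdown, had 2.61 and 2.65 FPKM under overexpression and 4.62 and 4.38 FPKM under knockdown, against 3.20 and 2.71 FPKM in the control. Here overexpression was the lowest group, just under control, and knockdown lay above both. Knockdown exceeded control by 0.48 ± 0.08 (limma adjusted p = 0.00216), and overexpression differed by -0.12 on the same scale without a call. Gaa, the alpha-glucosidase that degrades glycogen, was at 89.3 and 90.1 FPKM under overexpression and 108 and 97.4 FPKM under knockdown, against 78.0 and 84.9 FPKM in the control. The groups were separate, and knockdown exceeded control by 0.33 ± 0.06 (limma adjusted p = 0.00338), against 0.14 for overexpression (adjusted p = 0.31).

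Lipa, the acid lipase that frees cholesterol and fatty acids from lipoprotein cargo, was the 1 enzyme of the 18 tested that was called lower under knockdown. It had 2.15 and 1.95 FPKM under overexpression and 0.982 and 1.45 FPKM under knockdown, against 1.82 and 2.22 FPKM in the control. Both knockdown libraries lay below the other 4, which overlapped. The log2 fold change of knockdown against control was -0.45 ± 0.12 (SE, limma adjusted p = 0.0146). The call was lost without control 2 (adjusted p = 0.1) or knockdown 1 (adjusted p = 0.0881). Among the 8 without a call under knockdown, log2 fold changes ran from -0.19 for Glb1, the beta-galactosidase, to 0.20 for Galc, which degrades galactosylceramide of myelin. Hexa, the alpha subunit of beta-hexosaminidase, was at 35.3 and 36.0 FPKM under overexpression and 35.8 and 33.0 FPKM under knockdown, against 29.9 and 31.6 FPKM in the control. Both manipulated groups lay above control without overlap, and neither difference passed (log2 0.21 and 0.15, limma adjusted p = 0.121 and 0.0515), although each of the 3 scalings called Hexa higher under knockdown. The other 5, Gla, Gusb, Ppt1, Sgsh and Smpd1, differed from control by -0.08 to 0.17 under knockdown. Scaling by median log ratio and to the same summed FPKM called Galc higher under knockdown, and the latter also Gla.

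The membrane proteins divided. Lamp1 had 266 and 262 FPKM under overexpression and 243 and 232 FPKM under knockdown, against 247 and 262 FPKM in the control, and was not called. Overexpression overlapped control, and knockdown lay just below it (log2 0.05 ± 0.05, limma adjusted p = 0.665, and -0.10 ± 0.05, adjusted p = 0.135). Its relative Lamp2, a splice form of which carries proteins in during chaperone-mediated autophagy, had 18.5 and 17.3 FPKM under overexpression and 16.5 and 15.9 FPKM under knockdown, against 17.9 and 19.7 FPKM in the control. The knockdown values were the lowest. Lamp2 fell by 0.20 ± 0.06 on the log2 scale under knockdown (limma adjusted p = 0.0278). The call did not hold without control 2 (adjusted p = 0.188), knockdown 1 (0.0537) or knockdown 2 (0.104), nor after scaling by median log ratio (0.119), quantile normalization (0.282) or scaling to the same summed FPKM (0.373). Scarb2, which carries glucocerebrosidase to the lysosome, read 44.0 and 45.2 FPKM under overexpression and 40.4 and 38.0 FPKM under knockdown, against 45.9 and 46.5 FPKM in the control. Knockdown was again lowest, with a log2 fold change of -0.23 ± 0.05 (limma adjusted p = 0.00603). That call was lost after quantile normalization (adjusted p = 0.155) and after scaling to the same summed FPKM (0.124).

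Mcoln1, the calcium channel of the lysosomal membrane that acts upstream of TFEB, stayed within a narrow range, with 25.9 and 25.7 FPKM under overexpression and 26.9 and 25.6 FPKM under knockdown, against 25.5 and 24.9 FPKM in the control. It was not called under knockdown (log2 0.05 ± 0.05, limma adjusted p = 0.412), although quantile normalization and scaling to the same summed FPKM called it higher. Cd63 averaged 135 ± 0.916 FPKM under overexpression and 127 ± 4.72 FPKM under knockdown, against 124 ± 7.94 FPKM in the control (SD, n = 2 each), without a call in either comparison. The same 2 scalings that called Mcoln1 higher under knockdown called Cd63 higher there too.

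Cd68 had the largest fold change of the 39 genes. It encodes a heavily glycosylated protein of late endosomes and lysosomes that is most abundant in macrophages. It was at 0.528 and 0.570 FPKM under overexpression and at 3.31 and 4.31 FPKM under knockdown, against 0.348 and 0.397 FPKM in the control. The knockdown libraries were far above the other 4, and both overexpression libraries lay slightly above control. The ratio of mean FPKM of knockdown to control was 10.2, and the log2 fold change was 1.80 ± 0.11 (SE, limma adjusted p = 6.8e-05). That of overexpression was 0.17 ± 0.11 (adjusted p = 0.482). Cd68 passed the limit for testing through the knockdown libraries alone, so its p-value under knockdown is tied to that difference and adds no separate support.

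**Figure D3:**
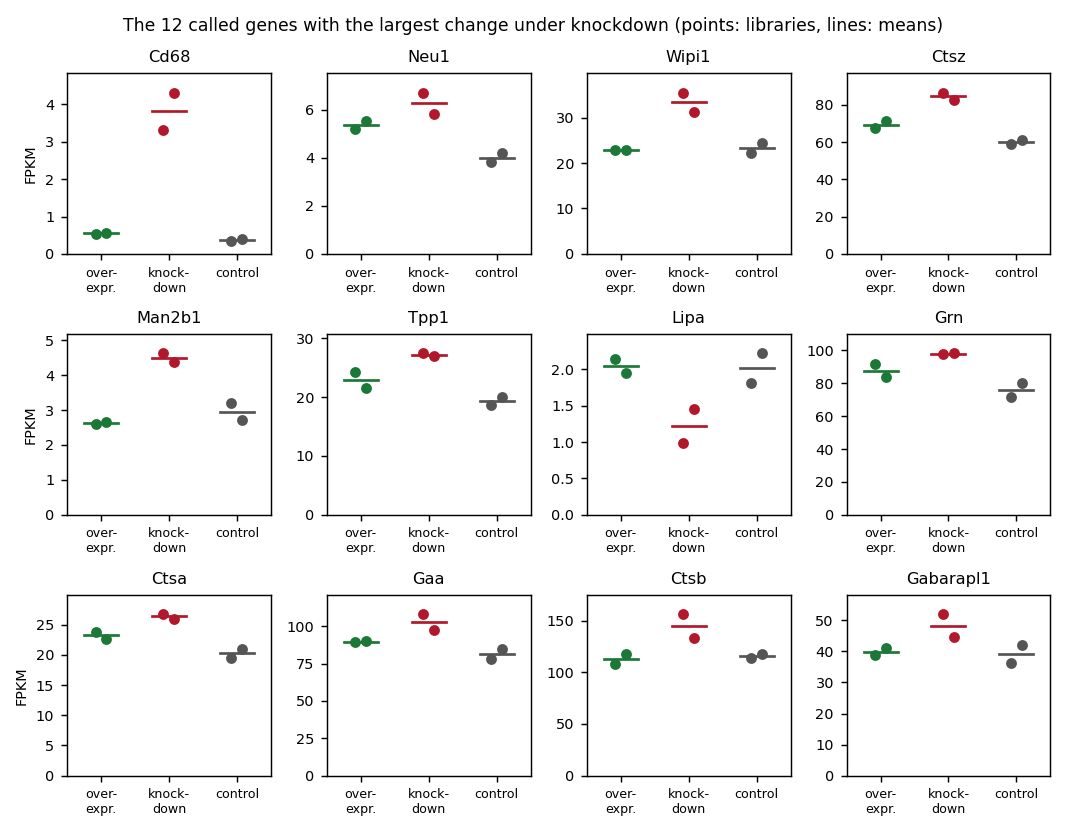
FPKM in each library for the 12 called genes with the largest fold change under knockdown, one panel per gene with its own axis from 0, with overexpression, knockdown and control from left to right; points are libraries and lines are group means. Cd68 separates the knockdown libraries most widely, Ctsz steps down from knockdown through overexpression to control, and Lipa is lowest under knockdown.

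The sequence before the start of Cd68 is shown because that gene moved most. RefSeq places it at chr11:69666121-69666420 on the minus strand of GRCm38.p6, from 250 bases before the start to 50 after it. Capitals mark the motif TGANTCA, the site of AP-1 factors, searched on both strands and found at -149 and -24, where an offset is that of the motif's first base with the start at 0.
Cd68: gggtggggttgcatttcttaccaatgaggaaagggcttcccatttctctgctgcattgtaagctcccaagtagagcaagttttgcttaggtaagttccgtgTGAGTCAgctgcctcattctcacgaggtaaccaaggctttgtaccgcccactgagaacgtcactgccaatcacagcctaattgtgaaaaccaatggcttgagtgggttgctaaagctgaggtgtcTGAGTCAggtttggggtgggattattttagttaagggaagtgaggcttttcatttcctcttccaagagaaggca
TGANTCA was found in such windows of 5 of 37 matched genes (13.5%), Cd68, Neu1, Psap, Glb1 and Tfe3, against 5.81% of tested genes and 8.97% of all genes in the RefSeq table. A match is a description of these letters and not a bound site. CACGTG was not in this window of Cd68.

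Markers of macrophages and microglia and the genes beside Cd68 were read next to it. The 19 such markers, of which 8 to 11 were at 0 in a library, summed to 6.07 and 5.43 FPKM in overexpression libraries and to 7.53 and 7.17 FPKM in knockdown libraries, against 8.21 and 7.07 FPKM in control libraries. These ranges overlap between knockdown and control, and most of each sum was Lyz2, the lysozyme gene of myeloid cells. Lyz2 was called lower under knockdown (log2 fold change -0.39 ± 0.08, limma adjusted p = 0.00356) and under overexpression (-0.52 ± 0.08, limma adjusted p = 0.0187). The other 18 summed to 1.59 and 1.21 FPKM in overexpression libraries and to 2.43 and 2.57 FPKM in knockdown libraries, against 1.25 and 0.681 FPKM in control libraries, so that knockdown was highest without overlap. P2ry12, Trem2 and C1qa, defining genes of microglia and tissue macrophages, were at 0 in all 6 libraries. Aif1, Itgam, Tyrobp, Fcer1g, Tmem119 and Laptm5 lay above control in both knockdown libraries, and Csf1r, Cd14, Lyz2 and C1qc lay below it. The rest overlapped or were at 0 in both groups. All but Lyz2 were under the limit for testing, and the share of all genes that separate in this way is not given here. Fcer1g was at 0.331 and 0 FPKM under overexpression and 0.554 and 1.04 FPKM under knockdown, against 0 in both control libraries, and Tyrobp was at 0.126 and 0.145 FPKM under overexpression and 0.643 and 0.350 FPKM under knockdown, against 0.123 and 0 FPKM in the control. Fcer1g and Tyrobp were picked after their values were seen. Of the untested markers below control, Cd14 was at 0 and 0.0343 FPKM under knockdown, against 0.0746 and 0.116 FPKM in the control. Csf1r was at 0.0107 and 0.0201 FPKM against 0.0219 and 0.0224 FPKM, and C1qc at 0 in both against 0.143 and 0.0486 FPKM. The part of these markers in the level of Cd68 was not tested.

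Cd68 lies on chromosome 11 of GRCm38 at 69664213 to 69666153. The nearest upstream gene is Eif4a1, a translation initiation helicase on the same strand, whose annotated end is 782 bases from Cd68. Eif4a1 was at 109.6 and 116 FPKM under overexpression and 91.5 and 89.2 FPKM under knockdown, against 105 and 115 FPKM in the control. Eif4a1 was thus lowest in the libraries in which Cd68 was highest. Of all tested genes 31.3% were called lower under knockdown. Mpdu1 on the other side, 1570 bases away, had 8.56 and 10.9 FPKM under overexpression and 9.0 and 8.83 FPKM under knockdown, against 11.3 and 10.8 FPKM in the control. Farther on that side, Sox15 lies 7485 bases from Cd68 and was under the limit for testing. Sox15 was at 0 FPKM in all overexpression and control libraries and at 0.416 and 0.127 FPKM under knockdown. The part of the neighbours in the level of Cd68 was not tested.

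**Figure D4:**
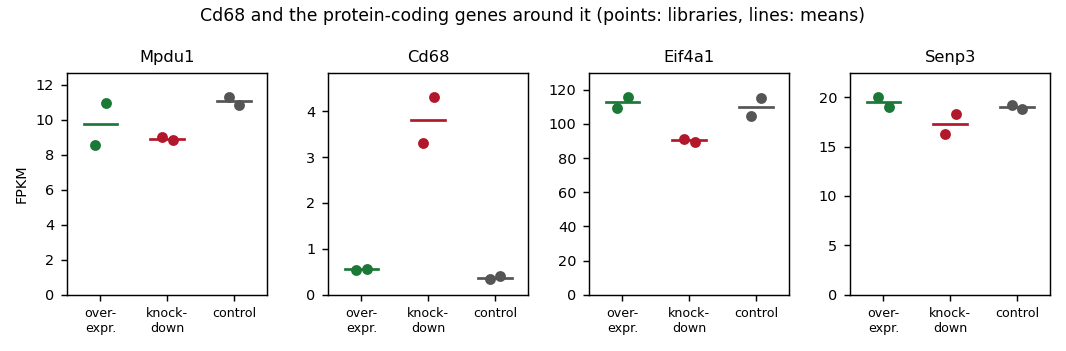
FPKM in each library for Mpdu1, Cd68, Eif4a1 and Senp3, which lie next to each other, one panel per gene with its own axis from 0, with overexpression, knockdown and control from left to right (points: libraries, lines: means). Cd68 reaches 3.31 and 4.31 FPKM in the knockdown libraries, while Eif4a1 is lowest there at 91.5 and 89.2 FPKM.

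The transcription factors of the pathway were expressed at low to moderate levels. Tfeb was at 3.56 and 4.19 FPKM under overexpression and 4.42 and 4.19 FPKM under knockdown, against 3.22 and 3.60 FPKM in the control. Knockdown libraries lay above control and one of them level with an overexpression library. Tfeb exceeded control by 0.27 ± 0.09 on the log2 scale under knockdown (limma adjusted p = 0.0337), and the call was lost without control 1 (adjusted p = 0.182), control 2 (0.0503), knockdown 1 (0.132) or knockdown 2 (0.066). Tfe3 was at 11.5 and 11.2 FPKM under overexpression and 10.4 and 11.1 FPKM under knockdown, against 11.6 and 13.9 FPKM in the control, so control was highest. It was not called (knockdown log2 fold change -0.22 ± 0.08, limma adjusted p = 0.0513). Mitf, another factor of this family, was at 1.26 and 0.985 FPKM under overexpression and 1.08 and 1.33 FPKM under knockdown, against 0.815 and 1.00 FPKM in the control, also without a call.

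CACGTG, the letters that TFEB and TFE3 bind, was searched on both strands in promoter windows of the same extent. RefSeq windows on GRCm38.p6 were matched for 37 of the 42 genes, all but Atg12, Becn1, Ctsb, Ctsh and Map1lc3a. The motif was found in 12 of the 37 (32.4%), against 12% of 8348 tested genes and 8.09% of all genes in the table. By call under knockdown it was in 3 of 13 genes called higher, Ctsa, Ctsd and Gaa, in 1 of 5 called lower, Atg5, and in 7 of 17 without a call, Atg7, Ctsl, Gla, Glb1, Lamp1, Mcoln1 and Sgsh. It was also in Ctsf, which was not tested. GCGTGGGCG, the site of EGR factors, was in none of the 37, against 1.44% of tested genes. In Glb1 a CACGTG and a TGANTCA overlap by 2 bases. The windows of 2 genes called higher and of 2 genes without a call are shown with CACGTG in capitals, all 5' to 3' on the gene's strand. Ctsa lies at chr2:164833523-164833822 (plus), Ctsd at chr7:142387778-142388077 (minus), Lamp1 at chr8:13158911-13159210 (plus) and Mcoln1 at chr8:3500269-3500568 (plus). For Ctsa this is 1 of 2 windows.
Ctsa: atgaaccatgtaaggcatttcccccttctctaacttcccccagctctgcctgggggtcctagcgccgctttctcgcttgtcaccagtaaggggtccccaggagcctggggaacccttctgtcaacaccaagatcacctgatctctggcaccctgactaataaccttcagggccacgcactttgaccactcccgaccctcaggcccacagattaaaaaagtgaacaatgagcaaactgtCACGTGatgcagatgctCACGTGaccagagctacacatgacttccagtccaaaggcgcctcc
Ctsd: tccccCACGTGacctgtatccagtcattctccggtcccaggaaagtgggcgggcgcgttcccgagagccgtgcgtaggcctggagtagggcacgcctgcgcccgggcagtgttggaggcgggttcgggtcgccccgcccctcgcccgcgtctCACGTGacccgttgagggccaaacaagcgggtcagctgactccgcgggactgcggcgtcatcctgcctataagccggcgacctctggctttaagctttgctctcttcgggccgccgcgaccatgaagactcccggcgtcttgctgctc
Lamp1: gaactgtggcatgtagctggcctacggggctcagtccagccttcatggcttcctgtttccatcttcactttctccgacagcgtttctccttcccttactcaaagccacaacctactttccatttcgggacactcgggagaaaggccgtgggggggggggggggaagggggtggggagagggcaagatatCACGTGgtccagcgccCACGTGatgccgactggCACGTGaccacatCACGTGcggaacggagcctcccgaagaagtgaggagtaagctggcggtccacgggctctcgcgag
Mcoln1: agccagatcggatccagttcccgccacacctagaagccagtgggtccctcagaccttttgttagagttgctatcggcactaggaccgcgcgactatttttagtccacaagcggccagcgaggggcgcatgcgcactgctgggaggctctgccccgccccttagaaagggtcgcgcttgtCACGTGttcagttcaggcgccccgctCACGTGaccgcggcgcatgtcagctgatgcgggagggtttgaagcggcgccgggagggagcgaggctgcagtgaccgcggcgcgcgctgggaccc
Lamp1 held 4 copies, at -61, -45, -28 and -15 from the start, and Mcoln1 held 2, at -71 and -45. These 2 genes had no call under knockdown, while Ctsd, with copies at -245 and -98, and Ctsa, with copies at -12 and 5, were called higher.

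The ubiquitin-like proteins of the LC3 and GABARAP family, which are linked to lipid on the autophagosome, did not move together. Gabarapl1 had 38.7 and 41.0 FPKM under overexpression and 51.9 and 44.7 FPKM under knockdown, against 36.3 and 42.1 FPKM in the control. Both knockdown libraries lay above the other 4. Its log2 fold change was 0.29 ± 0.09 under knockdown (limma adjusted p = 0.0221), lost without control 1 (adjusted p = 0.157) or knockdown 1 (0.133). Gabarap had 92.4 and 91.8 FPKM under overexpression and 85.4 and 85.5 FPKM under knockdown, against 96.3 and 97.2 FPKM in the control, separate groups with knockdown lowest. Its log2 fold change was -0.18 ± 0.04 (limma adjusted p = 0.0102). It did not pass without control 1 (adjusted p = 0.0505), without control 2 (0.0618), after scaling by median log ratio (0.0783) or after scaling to the same summed FPKM (0.437), and quantile normalization turned the sign (log2 fold change 0.02, adjusted p = 0.77).

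The other LC3 and GABARAP proteins were not called, although quantile normalization and scaling to the same summed FPKM called Map1lc3b higher under knockdown. Map1lc3b, the LC3 protein most used as an autophagosome marker, was at 56.4 FPKM in both overexpression libraries and 61.7 and 62.7 FPKM under knockdown, against 57.3 and 62.8 FPKM in the control (knockdown log2 fold change 0.05, limma adjusted p = 0.457). Its relative Map1lc3a was at 44.6 and 44.1 FPKM under overexpression and 44.1 and 45.7 FPKM under knockdown, against 47.4 and 49.6 FPKM in the control, so that control was highest (overexpression -0.13, adjusted p = 0.236; knockdown -0.11, adjusted p = 0.101). Gabarapl2 was at 85.8 and 85.5 FPKM under overexpression and 89.6 and 79.4 FPKM under knockdown, against 92.0 and 96.0 FPKM in the control. Control was highest here too, with a knockdown difference of -0.15 (adjusted p = 0.0689).

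Among the 6 factors of autophagy initiation and conjugation, 1 was higher under knockdown and 1 lower (33.3% called, beside 46.2% of all tested genes). Wipi1 binds the phosphoinositide that marks the forming autophagosome. It had 22.9 and 22.8 FPKM under overexpression and 35.5 and 31.2 FPKM under knockdown, against 22.3 and 24.4 FPKM in the control. Overexpression fell within the control range, and both knockdown libraries were far above it. Knockdown exceeded control by 0.49 ± 0.07 on the log2 scale (SE, limma adjusted p = 8.67e-04), with -0.03 for overexpression. Atg5, which joins Atg12 to form the enzyme that lipidates LC3, had 14.6 FPKM in both overexpression libraries and 11.4 and 11.9 FPKM under knockdown, against 13.4 and 13.3 FPKM in the control. The groups were separate, with overexpression highest and knockdown lowest. Atg5 differed by 0.12 under overexpression (limma adjusted p = 0.287) and by -0.18 ± 0.05 under knockdown (adjusted p = 0.0224). The knockdown call was lost without control 1 (adjusted p = 0.0989), control 2 (0.0841) or knockdown 1 (0.0978), and after scaling by median log ratio (0.14), quantile normalization (0.145) and scaling to the same summed FPKM (0.47).

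Ulk1, the kinase that starts autophagy, was at 4.03 and 4.01 FPKM under overexpression and 4.65 and 4.30 FPKM under knockdown, against 4.21 and 4.90 FPKM in the control. Becn1, a subunit of the lipid kinase complex that acts after it, was at 47.2 and 48.6 FPKM under overexpression and 43.3 and 47.0 FPKM under knockdown, against 49.1 and 50.3 FPKM in the control. Neither was called, nor were Atg7, the enzyme that activates both ubiquitin-like systems, and Atg12, with knockdown log2 fold changes of -0.03 and 0.08. Each of the 3 scalings, however, called Atg12 higher under knockdown.

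Overexpression was also set against knockdown directly, with all tested genes called in 40.5% (28.1% higher and 12.4% lower under overexpression). Of the 39 genes 4 were higher, Lamp1, Scarb2, Lipa and Atg5, and 9 were lower, Cd68, Ctsa, Ctsb, Ctsz, Tpp1, Gaa, Man2b1, Gabarapl1 and Wipi1, with a median log2 fold change of -0.064 against 0.071 over all tested genes. With each library left out in turn, 6 of the 13 were called every time, Cd68, Ctsb, Ctsz, Man2b1, Atg5 and Wipi1. The fold changes of these were -1.63 ± 0.11 for Cd68 (limma adjusted p = 1.29e-04), -0.60 ± 0.08 for Man2b1 (0.00114), -0.52 ± 0.07 for Wipi1 (0.00101), -0.35 ± 0.08 for Ctsb (0.0075), -0.28 ± 0.05 for Ctsz (0.00338) and 0.31 ± 0.05 for Atg5 (0.00291). Lamp1 (log2 fold change 0.15 ± 0.05, limma adjusted p = 0.0418) was not called with any library left out, with adjusted p between 0.0523 and 0.192. Without overexpression 2, Ctsa (0.164), Gaa (0.106), Gabarapl1 (0.0693), Scarb2 (0.0975) and Tpp1 (0.12) were lost. Without knockdown 1, Ctsa (0.123), Gaa (0.22), Gabarapl1 (0.2), Lipa (0.087) and Tpp1 (0.0703) were lost. Without overexpression 1, Ctsa (0.0644), Gaa (0.123), Gabarapl1 (0.149), Lipa (0.0754) and Scarb2 (0.0536) were lost, and without knockdown 2, Ctsa (0.0618) and Scarb2 (0.0928).

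A further 160 genes of the pathway, of which 149 were tested, were read for comparison. Under knockdown 29 were called higher and 30 lower (39.6%, against 46.2% of all tested genes). Under overexpression none was higher and 2 were lower (1.34%, against 1.54% of all tested genes). Other lysosomal hydrolases had more calls higher than lower under knockdown, with 11 higher and 3 lower of 25 (44.0% higher, beside 14.8% of all tested genes) and a median log2 fold change of 0.193. The split was 14 and 2, 15 and 2, and 17 and 2 under the 3 scalings in the order given above. Arsa, the arylsulfatase that degrades sulfatide of myelin, had 5.73 and 5.85 FPKM under overexpression and 10.4 and 8.75 FPKM under knockdown, against 5.46 and 5.4 FPKM in the control. The knockdown libraries stood clear of the other 4, with a log2 fold change of 0.72 ± 0.08 (limma adjusted p = 3.23e-04). Ids, a sulfatase of heparan and dermatan sulfate, was lower by contrast, at 1.39 and 1.10 FPKM under overexpression and 0.529 and 0.648 FPKM under knockdown, against 1.35 FPKM in both control libraries. Its log2 fold change under knockdown was -0.57 ± 0.10 (limma adjusted p = 0.00267). Ids passed the limit of a mean of 1 FPKM through the other 4 libraries alone, so its presence among the tested genes is tied to its difference.

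The other lysosomal membrane proteins had 6 higher and 3 lower of 28 under knockdown (21.4% and 10.7%, beside 14.8% and 31.3% of all tested genes). With the 3 scalings the split was 12 and 3, 12 and 3, and 13 and 2. The shares called higher were 42.9%, 42.9% and 46.4%, beside 21.2%, 18.7% and 25.4% of all tested genes. Glmp, a glycosylated membrane protein that accompanies a lysosomal transporter, was at 17.1 and 16.9 FPKM under overexpression and 25.4 and 23.8 FPKM under knockdown, against 12.3 and 15.7 FPKM in the control. Its 3 groups were separate with knockdown highest (log2 fold change 0.78 ± 0.09, limma adjusted p = 4.34e-04). Slc36a1, an amino acid exporter of the lysosome, was lower under knockdown (log2 fold change -0.56 ± 0.07, limma adjusted p = 4.46e-04). Abcb9, a peptide transporter, was higher (0.50 ± 0.14, limma adjusted p = 0.0174), but not without control 2 (adjusted p = 0.103) or knockdown 1 (0.0791). The proton pump of the lysosome, the v-ATPase, had 2 higher and 6 lower of 17 (11.8% and 35.3%, near the 14.8% and 31.3% of all tested genes). Under the 3 scalings 5 and 5, 6 and 4, and 6 and 3 were called, beside all-gene splits of 21.2% and 21.8%, 18.7% and 21.4%, and 25.4% and 16.2%. Its subunits Atp6v1e1, Atp6ap2 and Atp6v1h had log2 fold changes of -0.35, -0.29 and -0.29 (limma adjusted p = 0.00237, 0.00131 and 0.00353).

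Sorting and trafficking genes gave 2 higher and 4 lower of 13 for enzyme sorting and retromer (15.4% and 30.8%), and 2 higher and 5 lower of 13 for tethering and fusion (15.4% and 38.5%), beside 14.8% and 31.3% of all tested genes. These shares lie close to the background. The tethering split was 4 and 2 after scaling by median log ratio and after scaling to the same summed FPKM, where the all-gene split shifted the same way (21.2% and 21.8%, and 25.4% and 16.2%). After quantile normalization it was 2 and 4 (15.4% and 30.8%), beside 18.7% and 21.4% of all tested genes. Sort1, a receptor that carries Psap and Grn proteins towards or into the lysosome, had 33.2 and 34.0 FPKM under overexpression and 27.5 and 26.7 FPKM under knockdown, against 37.6 and 37.1 FPKM in the control. The groups were separate, and the log2 fold change of knockdown against control was -0.45 ± 0.05 (limma adjusted p = 2.5e-04). Rab7, the small GTPase of late endosomes, and Vps33a, a subunit of the tethering complexes, had log2 fold changes of -0.44 ± 0.05 and -0.57 ± 0.07 (limma adjusted p = 2.89e-04 and 5.57e-04). Gga1, an adaptor that sorts enzyme receptors at the Golgi, was lower (-0.32, limma adjusted p = 0.00185), and Gnptg, a subunit of the enzyme that puts the mannose 6-phosphate tag on hydrolases, was higher (0.37, adjusted p = 0.00222). Vps16, a partner of Vps33a, was higher (0.31, limma adjusted p = 0.0131), but not without control 2 (adjusted p = 0.0847) or knockdown 1 (0.0577).

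Nutrient-sensing genes on the lysosome, the Ragulator, Rag GTPases and folliculin, had 2 higher and 4 lower of 13 under knockdown (15.4% and 30.8%), which is near the 14.8% and 31.3% of all tested genes. The split was 2 and 2 (15.4% each) after quantile normalization or scaling to the same summed FPKM. All-gene splits there were 18.7% and 21.4%, and 25.4% and 16.2%. Rragd, a Rag GTPase that recruits mTORC1 and TFEB to the lysosome, was at 16.9 and 16.6 FPKM under overexpression and 11.1 and 10.8 FPKM under knockdown, against 17.5 and 16.9 FPKM in the control. The knockdown libraries lay well below the other 4 (log2 fold change -0.61 ± 0.05, limma adjusted p = 1.44e-04). Flcn and Fnip1, partners in the complex that activates Rragc and Rragd, were higher, by 0.40 ± 0.08 and 0.34 ± 0.06 (limma adjusted p = 0.00379 and 0.00196). Of autophagy initiation and nucleation genes 1 of 19 was called (5.26%, beside 46.2% of all tested genes). That gene is Vmp1, a lipid scramblase of the endoplasmic reticulum needed for autophagosome growth. It had 20.5 and 21.1 FPKM under overexpression and 30.0 and 28.7 FPKM under knockdown, against 20.1 and 19.8 FPKM in the control. Both knockdown values were clear of the rest (log2 fold change 0.53 ± 0.05, limma adjusted p = 1.79e-04).

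LC3 conjugation and processing had 1 lower of 6, Atg10 (log2 fold change -0.24 ± 0.08, limma adjusted p = 0.0422), a call lost with any control or knockdown library left out (adjusted p between 0.0718 and 0.202). The share called in that list was 16.7%, beside 46.2% of all tested genes. After scaling by median log ratio or to the same summed FPKM the list had 2 higher and none lower (33.3% higher, beside 21.2% and 25.4% of all tested genes). Autophagy receptors had 3 higher and 4 lower of 15 (20.0% and 26.7%, beside 14.8% and 31.3% of all tested genes). Among them were Tecpr1, which tethers autophagosomes to lysosomes (0.65 ± 0.10, limma adjusted p = 0.00119), and Ncoa4, the receptor for ferritin (-0.33 ± 0.07, limma adjusted p = 0.00416). Fundc1, a receptor on mitochondria, was lower as well (-0.37 ± 0.09, limma adjusted p = 0.00939), but not without control 2 (adjusted p = 0.0591) or knockdown 2 (0.0533). Sqstm1, which encodes the receptor p62, was at 275 and 244 FPKM under overexpression and 208 and 213 FPKM under knockdown, against 192 and 223 FPKM in the control. Overexpression was highest, and knockdown lay within the control range. Sqstm1 was not called against control (overexpression 0.32 ± 0.08, limma adjusted p = 0.0977, and knockdown 0.02 ± 0.08, adjusted p = 0.841). It was called higher in overexpression against knockdown (0.30 ± 0.08, limma adjusted p = 0.0177), but not without overexpression 1 (adjusted p = 0.0987) or knockdown 1 (0.0807), nor after quantile normalization (0.272) or scaling to the same summed FPKM (0.0823).

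The 2 pathway genes called under overexpression were lower. Arsb, another sulfatase of dermatan sulfate, was at 20.5 and 21.8 FPKM under overexpression and 21.4 and 20.0 FPKM under knockdown, against 27.6 and 26.5 FPKM in the control. Both manipulated groups lay below control, by -0.34 ± 0.06 (limma adjusted p = 0.0312) and -0.37 ± 0.06 (adjusted p = 0.00129). Rragb, a partner of Rragd, was at 5.62 and 5.90 FPKM under overexpression and 7.72 and 6.57 FPKM under knockdown, against 7.94 and 8.28 FPKM in the control, with overexpression lowest (-0.43 ± 0.08, limma adjusted p = 0.0413). With any control or overexpression library left out, neither overexpression call passed (adjusted p between 0.0738 and 0.233).

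**Figure D5:**
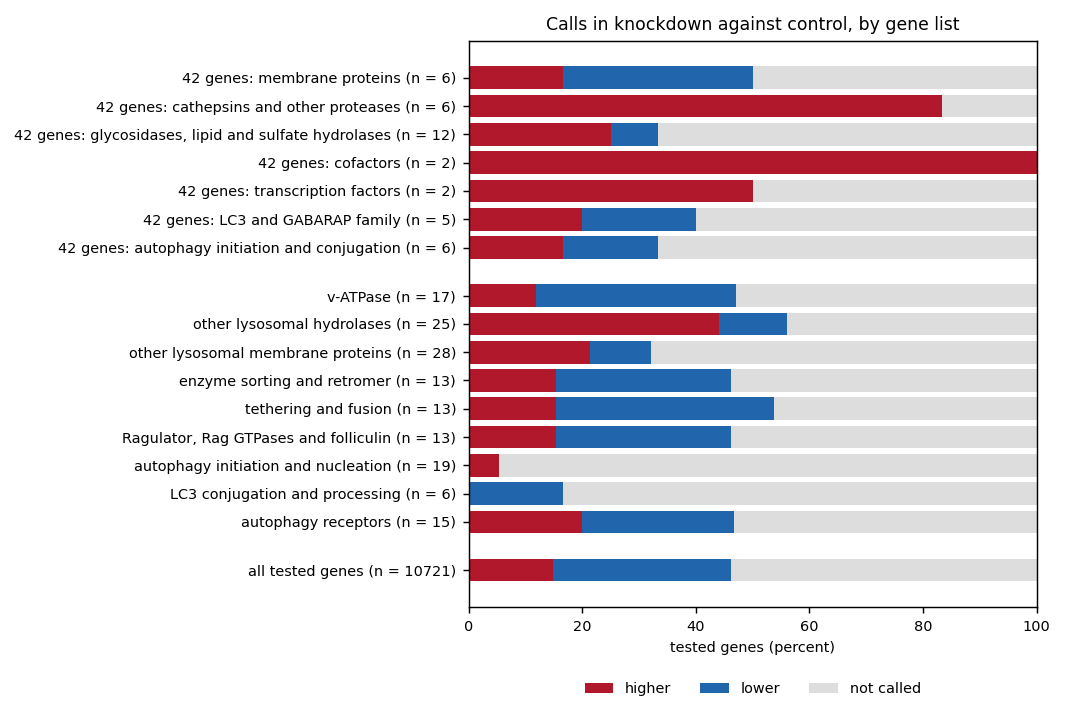
Percent of tested genes called higher, called lower and not called by limma in knockdown against control, for the 7 roles of the 42 genes, the 9 further lists of the pathway and all tested genes, with the number tested beside each name. Proteases, cofactors, both lists of other hydrolases and the further membrane proteins have more calls higher than lower. So do the transcription factors and autophagy initiation and nucleation, with 1 call each. In the other lists the calls lower equal or outnumber those higher.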

How the data were processed

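Total RNA of 6 Neuro-2a libraries was sequenced after poly(A) selection with a stranded kit, per the labels. The authors deposited FPKM per gene symbol for all 6. The submitters' processing notes list DESeq, HTSeq, Cufflinks, HISAT2, Trimmomatic and the build mm10. Their versions, the filters, the annotation and the strandedness of counting were not given in the sources used here. Since FPKM is scaled to the total, abundant genes that change shift all other values. The table had 21878 rows, 27 with a date in place of a symbol.

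Genes averaging 1 FPKM or more (10721) were tested on log2(FPKM + 1), so fold changes understate those of low genes. A mean per group was fitted over all 6 libraries with limma 3.58.1 in R 4.3.3, with trended empirical Bayes moderation and 3 residual degrees of freedom, and p-values were adjusted by Benjamini-Hochberg over all tested genes at 0.05. The code was tested on simulated data. An FPKM ratio is a ratio of group means. Values in each library are given for all genes called under overexpression, for the 12 called under knockdown with the largest fold change, and for 18 named genes of the pathway's core; up to 3 called genes of each further list are named, leaving out 1 not reported here, with all called under overexpression, Sqstm1, Mitf and the neighbours of Cd68. The members and lists were chosen with earlier results of these data known. Alternatives were quantile normalization, scaling by median log ratio, a filter at 5 FPKM or none, pseudocounts of 0.5 and 0.1, no trend, only the 4 libraries compared, a replicate block and each library left out; scaling to the same summed FPKM was added after seeing the data. Coordinates are from GENCODE on GRCm38, and promoter sequences from RefSeq on GRCm38.p6. Of the 42 genes 19 overlap another annotated gene, 7 of them on the same strand.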

Additional observations from a re-analysis of the deposited data

How the results depend on the processing

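Of the 19 calls under knockdown, 11 were kept with each library left out and 8 under every alternative run, those of Cd68, Ctsa, Ctsz, Tpp1, Man2b1, Neu1, Psap and Wipi1 (Cd68 and Man2b1 were not tested at a filter of 5 FPKM). Cd68 passed the main filter through the knockdown libraries alone. No member was called under overexpression against control, but 2 were called higher after quantile normalization and 1 after scaling to the same summed FPKM. Further pathway genes called lower under overexpression numbered 2, but 0 without the filter, 1 after quantile normalization, 0 without the trend and 0 to 2 with a library left out.

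Without the filter, knockdown gave 8 members higher and 3 lower, and 15 pathway genes higher. Members lower under knockdown numbered 2 after scaling by median log ratio and 1 after quantile normalization and after scaling to the same summed FPKM, and 1 to 5 with a library left out (1 without control 2). Pathway genes higher numbered 48, 44 and 53 under the 3 scalings and 16 to 29 with a library left out, and 16 were lower after scaling to the same summed FPKM. The log2 fold change of Gabarap under knockdown turned to 0.02 after quantile normalization.

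Overexpression against knockdown gave 4 members higher, but 2 without the filter and under each of the 3 scalings, and 1 to 3 with a library left out. Members lower numbered 9, but 4 without the filter, 14, 14 and 15 under the scalings and 5 to 9 with a library left out. All tested genes called lower in that comparison numbered 1332, and 926 without the filter and 1925, 1707 and 2301 under the scalings; those called higher numbered 3013, and 1821, 1988, 1930 and 1520, so the members' counts moved the same way as those of all genes. Pathway genes higher numbered 25, but 15 without the filter, 14 after quantile normalization, 12 after scaling to the same summed FPKM and 15 to 24 with a library left out. Pathway genes lower numbered 25, but 10 without the filter, 42, 40 and 49 under the scalings and 11 to 22 with a library left out. The cause of these changes was not tested. Where a library was left out, the lone one was assumed to vary like the other groups.

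With the replicate number as a block, knockdown gave 14 members higher and 5 lower, overexpression against knockdown 3 and 6, and overexpression against control 0 pathway genes lower. Pathway calls under the block were 25 and 26 for knockdown and 23 and 18 for overexpression against knockdown. Same-numbered libraries deviated from their group means with correlations of -0.117 for overexpression and control, 0.00692 for knockdown and control and -0.211 for overexpression and knockdown over 10721 genes, and the labels tie the numbers to no shared batch, so they were not taken as pairs. Depth is unknown, which limits what can be said of genes near or under 1 FPKM.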

Other observations

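Some further genes of the pathway were too low to be tested but higher in the knockdown libraries; they were picked after their values were seen. Rilp, the effector that links Rab7 to the dynein motor, was at 0.22 and 0.256 FPKM under overexpression and 1.17 and 1.06 FPKM under knockdown, against 0.0979 and 0.0991 FPKM in the control. Ctsk, the cysteine protease known from bone-resorbing osteoclasts, was at 0.0776 and 0.0663 FPKM under overexpression and 0.498 and 0.479 FPKM under knockdown, against 0.0593 and 0.0804 FPKM in the control. In both, the knockdown libraries lay above the other 4. The share of all genes that separate in this way is not given here. The member Ctsh, also untested, went the other way, at 0 FPKM in both knockdown libraries. It was at 0.1 and 0.0288 FPKM under overexpression, against 0.0506 and 0.131 FPKM in the control.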
